A study of Mus musculus with 29 samples.

Results

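The 10 genes described here mark the ovarian surface epithelium and the mesothelium it belongs to: the uroplakins Upk3b and Upk1b, the simple-epithelium keratins Krt7, Krt8, Krt18 and Krt19, the mesothelial surface proteins Msln and Lrrn4, and the adhesion molecules Cdh1 and Epcam. They were taken as a named list, matched by symbol to 10 of the 51912 Ensembl gene IDs of the deposited table. The rule used no expression value, but the list was drawn up with earlier results of these data known. Bulk RNA sequencing had been run on mouse ovaries dissociated with papain, in a study of cell cycle regulation in ovarian development. The animals were wild type (Cdkn1b +/+) or lacked both copies of Cdkn1b (Cdkn1b -/-, written Cdkn1b-null below), which encodes p27Kip1, an inhibitor of cyclin-dependent kinases. Fetal ovaries came from embryonic days 13.5 and 18.5 (E13.5 and E18.5), juvenile ovaries from day 8 after birth (PND8) and adult ovaries from 12 weeks of age (12wk). Each age had 4 wild-type libraries. There were 4 Cdkn1b-null libraries at E18.5 and 3 at every other age, so that 29 libraries in 8 groups were measured. The labels give the null genotype for the animal and name no tissue-restricted driver. The labels do not say whether a library pooled animals, which animals were littermates, or how much of the bursa, oviduct or mesonephros stayed with the ovary, so p-values measure only the spread between these libraries.

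The surface of the ovary is covered by a single layer of modified mesothelium that derives from the coelomic epithelium, the tissue that also feeds cells into the early gonad. Cells of this layer keep mesothelial traits, such as mesothelin and mucins on the free surface, and epithelial ones, such as paired simple keratins inside the cell and cadherin junctions at its sides. Several of the genes are also used elsewhere in the ovary: Krt8 and Krt18 are made by supporting cells, and Cdh1 and Epcam by germ cells and by the ducts beside the fetal gonad. In whole-ovary RNA, fewer cells of the surface layer and less RNA per such cell cannot be told apart, and a rise of other cell types lowers the share of reads that the layer contributes.

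Upk3b lies on chromosome 5 (136038496 to 136046487, plus strand) and Upk1b on chromosome 16 (38773184 to 38800328, minus strand), in GRCm38 coordinates of GENCODE M21. Krt7 (101411043 to 101430313, plus strand), Krt8 (101996698 to 102004482, minus strand) and Krt18 (102028180 to 102032027, plus strand) share the keratin cluster of chromosome 15, with Krt8 and Krt18 side by side and pointing away from each other. Krt19 lies on chromosome 11 (100140810 to 100148665, minus strand). Msln (25748613 to 25754378, minus strand) and Epcam (87635979 to 87651129, plus strand) are on chromosome 17. Lrrn4 is on chromosome 2 (132868305 to 132880891, minus strand) and Cdh1 on chromosome 8 (106603351 to 106670246, plus strand). All are protein-coding.

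Sequence upstream of a RefSeq start was found for 6 of the 10 genes in the RefSeq promoter table (GRCm38.p6): Upk3b, Lrrn4, Krt7, Krt8, Krt18 and Epcam. Stretches from 4 of them are shown, cut at the GENCODE gene start, because these genes part ways in the libraries described below: Upk3b and Lrrn4 had at most 2 counts in a pair of adult libraries, Epcam had 24 and 10, and Krt18 stood at 49.7% and 43.5% of the other libraries. Each is written 5′ to 3′ on the strand of its gene, and capitals mark a match on either strand to the TEAD letters GGAATG or to the GC box GGGCGG.
Upk3b, chr5:136038246-136038495, plus strand: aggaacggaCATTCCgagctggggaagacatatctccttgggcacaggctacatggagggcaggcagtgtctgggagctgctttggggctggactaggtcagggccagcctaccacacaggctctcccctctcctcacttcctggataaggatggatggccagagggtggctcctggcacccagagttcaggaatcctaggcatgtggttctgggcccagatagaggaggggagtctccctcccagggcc
Lrrn4, chr2:132880892-132881112, minus strand: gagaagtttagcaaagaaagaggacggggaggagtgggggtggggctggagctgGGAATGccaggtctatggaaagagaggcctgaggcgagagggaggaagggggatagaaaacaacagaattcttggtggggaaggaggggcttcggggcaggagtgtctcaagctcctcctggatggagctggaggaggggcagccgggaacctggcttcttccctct
Epcam, chr17:87635729-87635978, plus strand: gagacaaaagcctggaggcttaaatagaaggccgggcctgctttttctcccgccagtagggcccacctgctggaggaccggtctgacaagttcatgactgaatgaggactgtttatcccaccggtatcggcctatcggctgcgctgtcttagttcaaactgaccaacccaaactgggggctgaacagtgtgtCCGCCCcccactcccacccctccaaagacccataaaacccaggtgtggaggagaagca
Krt18, chr15:102027966-102028179, plus strand: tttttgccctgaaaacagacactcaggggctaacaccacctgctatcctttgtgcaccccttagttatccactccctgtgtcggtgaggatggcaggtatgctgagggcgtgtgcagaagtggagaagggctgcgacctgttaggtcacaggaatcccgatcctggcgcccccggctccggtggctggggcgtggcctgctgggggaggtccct
The Upk3b and Lrrn4 windows each held 1 TEAD match, letters that 12.6% of all 32851 promoter windows of 250 bases also hold. The Epcam window held 1 GC box match, against 32.7% of all windows, and the Krt7 window held 4. Whole windows of 250 bases were searched, also where they reached into the GENCODE gene. The Krt7 window (101412153 to 101412402) lay wholly inside its gene. Of the Krt8 window 110 bases lay upstream of the GENCODE gene start. No TATA box (TATAAA, in 12.4% of all windows), grainyhead-like match (AACCNGTT, in 1.8%) or CCAAT box (CCAAT, in 33.8%) was found in any of the 6 windows, and the Krt8 and Krt18 windows held none of the 5 motifs searched. None of the 5 motifs contains another, and a match describes the sequence only.

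Library totals ran from 14.1 to 24.9 M expected counts at the fetal ages and from 24.1 to 48.2 M after birth. The column headers name combined projects without saying which libraries came from which, and a difference between projects was not tested. A level of 3 counts was taken as the floor of detection, which covers counting error only. Cdkn1b itself was lower in the Cdkn1b-null libraries at each age, with no overlap between groups: it fell by 3.06 on the log2 scale at E18.5 (SE 0.163, adjusted p = 1.12e-05), by 2.38 at E13.5 (SE 0.187, adjusted p = 0.0114) and by 1.06 at PND8 (SE 0.102, adjusted p = 0.0216). The adult value was -1.85 (SE 0.309, adjusted p = 0.211). Haemoglobin genes took 18.97% of the unscaled counts of wild-type replicate 3 at E13.5. Pax8, a transcription factor that the ducts beside the fetal gonad make, stood at 29.4 to 59.0 CPM (counts scaled by library size) in wild type at E13.5 and at or under the floor in all 7 libraries at 12wk. Ovgp1, the secretory glycoprotein of the oviduct, reached 2.72 CPM at E18.5 and at most 1.44 CPM at the other ages. Which cells these reads came from was not tested.

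The labelled tissue carried the 10 genes in nearly every library, and 4 libraries stood low for them, with 9 or 10 genes lowest in the group and a median under 50% of the other libraries (a choice made after seeing the values). The next were wild-type replicate 1 at PND8, with 9 genes lowest and a median of 55.1%, and wild-type replicate 3 at E13.5, with 8 and 66.5%. Levels below are CPM with library sizes scaled by the TMM method over all 29 libraries. In wild-type replicate 2 at 12wk, 9 of the 10 genes were the lowest of their group and 4 were at or under 3 counts. Upk3b had 1 count there (0.0321 CPM, under the floor of 0.0962), against 15.5, 23.1 and 19.9 CPM in wild-type replicates 1, 3 and 4. Lrrn4 had 0 counts and Msln and Krt19 had 2 each. Cdkn1b-null replicate 1 at 12wk had the same look, with 9 genes lowest in the group and 6 at or under 3 counts. It held 2 counts of Upk3b, where Cdkn1b-null replicates 3 and 4 had 37.3 and 39.5 CPM, and 0 counts of Msln, where they had 18.9 and 15.8 CPM. Krt8 and Krt18 did not take part to the same degree. Krt8 reached 56.5 and 52.8 CPM in this pair of libraries, which is 79.1% and 86.8% of the mean of the other libraries of the group, and Krt18 reached 49.7% and 43.5%.

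In those adult libraries genes of other lists were low with the members. Muc16, the large mucin of mesothelial surfaces, had 0 counts in both, where the other libraries of the group averaged 6.28 CPM in wild type and 12.5 CPM in Cdkn1b-null. The zinc-finger gene Bnc1 had 1 and 0 counts, and Gpm6a, a membrane glycoprotein of mesothelium, stood at 3.23% and 18.0% of the others (these 3 partners were chosen after their values were seen). Of the 24 partner genes listed for mesothelium, 22 were above the floor in the other libraries of each group. Of these 22, 12 in wild-type replicate 2 and 11 in Cdkn1b-null replicate 1 were under 50% of the others, where 10.4% and 8.51% of all genes above the floor were. Epithelial junction genes gave 22 and 18 of 49, and germ cell and oocyte genes 14 of 17 and 4 of 13. Foxl2, the granulosa transcription factor, stood at 82.0% and 105% of the others, and 2 and 0 of the 14 granulosa genes were under 50%. Summed over the 24 mesothelial partners, wild-type replicate 2 had 1313 CPM against 1550 to 1711 in its group. Cdkn1b-null replicate 1 had 2906 CPM against 2191 and 3142, so this sum was not low there. Of these sums Aldh1a1 averaged 793 CPM in wild type and 1878 CPM in Cdkn1b-null at 12wk. The summed level of the 15 genes listed for oviduct, rete ovarii and mesonephric duct was 48.2 CPM in wild-type replicate 2 against 91.9 to 122 in its group, and 47.0 CPM in Cdkn1b-null replicate 1 against 42.9 and 55.0. The summed germ cell and oocyte level was 10.3 CPM against 16.2 to 124 (20 genes), and 6.24 against 8.63 and 9.52 CPM. Summed stroma and theca genes stood at 9891 CPM against 7067 to 9259, and at 7364 against 6868 and 10420. In wild-type replicate 2 the sum and the single genes went opposite ways: 11 of the 14 stroma and theca genes were lowest in their group there, with a median of 61.8% of the others. Pecam1, an endothelial adhesion molecule, was at 130% and 53.8% of the others. Leukocyte genes summed to 804 CPM against 530 to 633, and to 417 against 508 and 933. The part of tissue composition in these values was not tested.

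**Figure D1:**
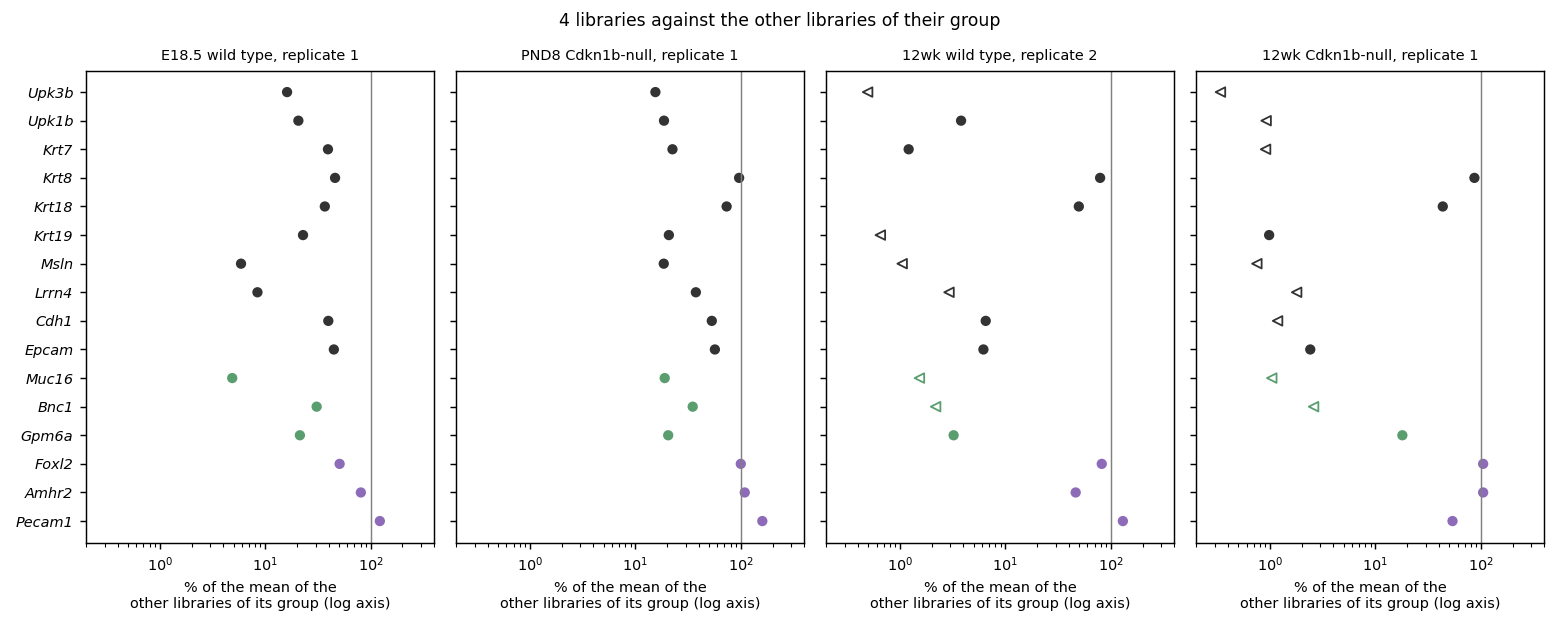
Level of each of the 10 genes (black), 3 mesothelial partners (green) and 3 genes of inner ovarian cells (purple) in 4 libraries, as a percentage of the mean of the other libraries of the same group (log axis, vertical line at 100%). Open triangles are counts at or under 3, drawn at 3 counts. In the 12wk panels Krt8 lies at 79.1% and 86.8% while Upk3b lies under 1%.

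The other pair lay low by less. In Cdkn1b-null replicate 1 at PND8, 9 genes were lowest in the group, from 15.5% of the others for Upk3b to 73.4% for Krt18, and only Krt8 was not, at 96.4%. Foxl2 stood at 100% there, and red cell genes summed to 1855 CPM against 163 and 248. Stroma and theca genes summed to 13430 CPM against 8242 and 9133, endothelial genes to 472 against 275 and 359, and germ cell genes to 488 against 626 and 1134. Under 50% of the others were 7 of 21 mesothelial partners and 7.02% of all genes. In wild-type replicate 1 at E18.5 all 10 genes were lowest. Msln was at 5.89%, Lrrn4 at 8.43% and Krt8 at 45.9% of the others, and Foxl2 at 50.7%. The granulosa list as a whole had a median of 89.8%, with 1 of 13 genes under 50% and a sum of 2042 CPM, inside the group's 1704 to 2042. Under 50% were also 9 of 23 mesothelial partners, 9 of 19 germ cell genes and 7.63% of all genes, while the endothelial genes had a median of 173%. The part of these other cell types was not tested. The steps through E18.5 and PND8 are also given below without this pair.

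**Figure D2:**
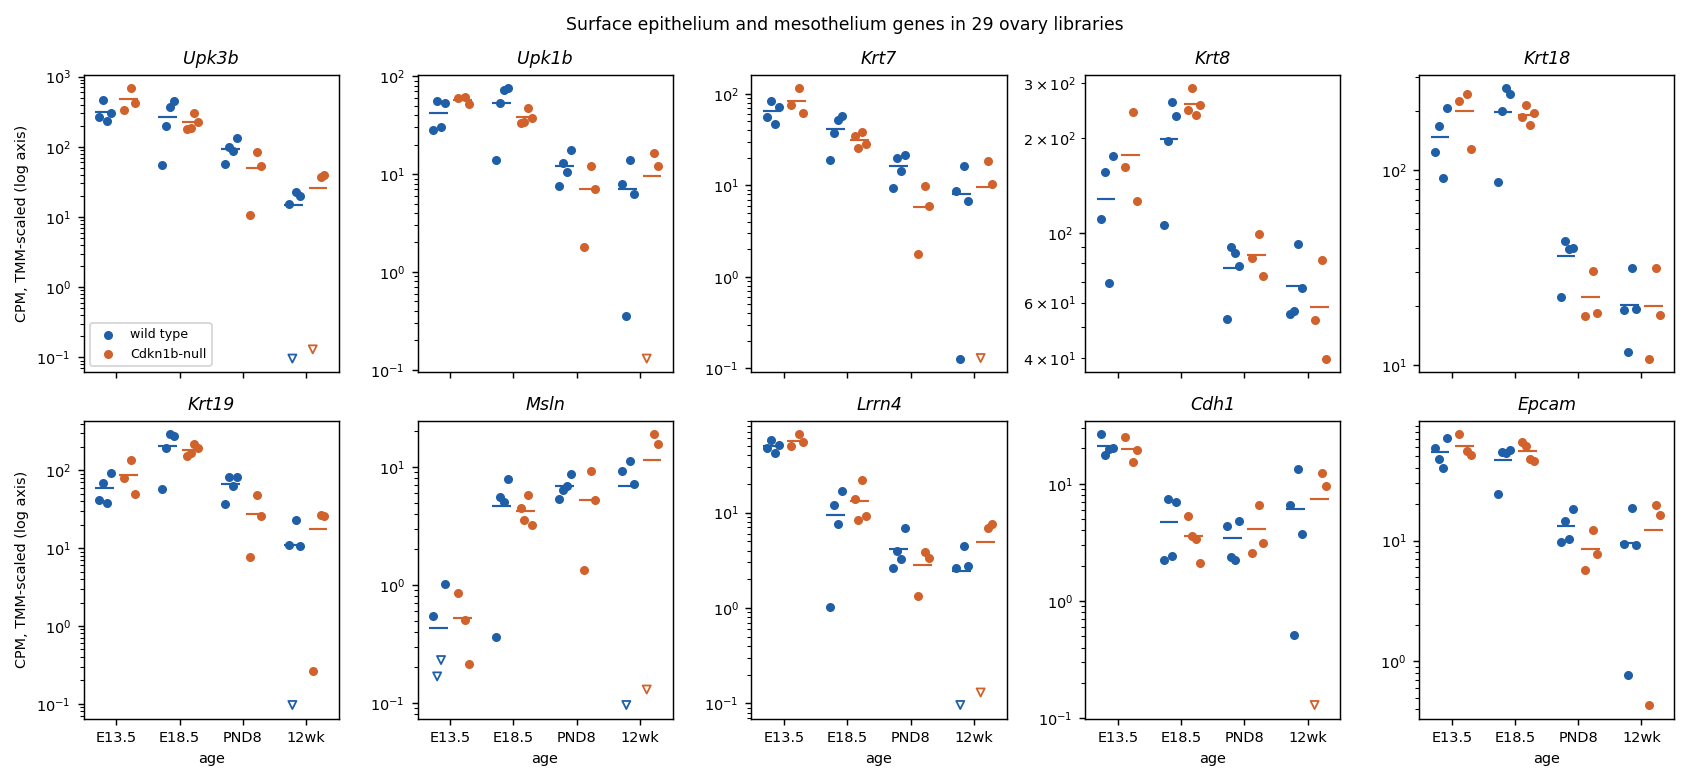
CPM (TMM-scaled, log axis) of the 10 genes in every library by age, wild type in blue and Cdkn1b-null in orange, with a horizontal bar at each group mean. Open triangles are counts at or under 3, drawn at the floor of their library. In wild type Upk3b steps down from means of 267 to 314 CPM in fetal ovaries to a mean of 14.6 CPM at 12wk. Msln is the gene with its lowest group means at E13.5. Its values in wild-type replicate 2 and Cdkn1b-null replicate 1 at 12wk were 0.0641 and 0.0 CPM.

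Per kilobase of exon, so that genes can be compared, the fetal order in wild type was led by keratins and Upk3b. At E13.5 the level was 103 ± 35.6 CPM per kb for Krt18 (SD, n = 4), 89.0 ± 28.3 for Upk3b and 65.4 ± 24.4 for Krt8, and these 3 lay within their spread of each other. Krt19 followed at 32.4 ± 13.8, Epcam at 24.9 ± 6.25, Upk1b at 20.1 ± 7.00 and Lrrn4 at 13.3 ± 1.80 CPM per kb, each overlapping its neighbour within the SDs. Krt7 stood at 9.15 ± 2.32, but at 15.8 and so above Lrrn4 where the longest transcript was taken in place of all exons. Cdh1 stood at 4.56 ± 0.832 and Msln last at 0.141 ± 0.147 CPM per kb. At 12wk Krt8 was first at 34.6 ± 8.68 and Krt18 next at 14.2 ± 5.73 CPM per kb. The other 8 genes were between 0.665 (Lrrn4) and 5.98 (Krt19) CPM per kb, with SDs close to the means, and wild-type replicate 2 lay below the rest for all 8.

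Upk3b, a urothelial plaque protein that mesothelium also makes, was among the most abundant of the 10 in the fetal ovary. Wild-type values were 268, 458, 231 and 300 CPM at E13.5 and 54.3, 197, 364 and 452 at E18.5. After birth they were 56.3, 101, 86.0 and 132 CPM at PND8, and 15.5, 0.0321, 23.1 and 19.9 at 12wk. The fetal groups overlapped, each library at PND8 lay below all but the lowest at E18.5, and all adult libraries lay below all PND8 libraries. From E18.5 to PND8 Upk3b fell by 1.60 on the log2 scale in wild type (SE 0.552, adjusted p = 0.0251), and by 1.93 without the low E18.5 library (adjusted p = 0.000501). The call was lost in 7 of 15 alternatives: the value went down to -1.19 and the adjusted p up to 0.0819 over left-out libraries, and the adjusted p was 0.132 in 1 fit of all groups. From PND8 to 12wk the difference was -2.60 (SE 0.879, adjusted p = 0.0524), which missed the threshold. Leaving out wild-type replicate 2 at 12wk gave a smaller difference with less spread, -2.19 (adjusted p = 0.0013).

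Cdkn1b-null ovaries had 331, 686 and 423 CPM of Upk3b at E13.5 and 182, 184, 305 and 227 at E18.5. Juvenile libraries had 10.6, 84.0 and 52.8 CPM and adult ones 0.0867, 37.3 and 39.5. Here the groups at E13.5 and E18.5 did not overlap, nor did those at E18.5 and PND8. Upk3b fell by 1.07 (SE 0.268, adjusted p = 0.020) from E13.5 to E18.5 and by 2.25 (SE 0.705, adjusted p = 0.0271) from E18.5 to PND8, or by 1.77 (adjusted p = 0.00155) without the low PND8 library. Of 14 alternatives each, the first call was lost in 4 and the second in 5, with adjusted p up to 0.0587 and 0.0789 over left-out libraries. Between PND8 and 12wk the difference was -0.84 (SE 1.33), and -0.27 (adjusted p = 0.833) without Cdkn1b-null replicate 1 at 12wk.

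Upk1b, the tetraspanin of the same urothelial plaques, ran from 28.3 to 55.5 CPM at E13.5 and from 13.8 to 75.7 at E18.5 in wild type, then from 7.51 to 17.8 at PND8. It fell by 2.23 (SE 0.476, adjusted p = 0.00175) between E18.5 and PND8, or by 2.54 without the low E18.5 library. The Cdkn1b-null groups were 52.0 to 60.7, 33.3 to 47.8 and 1.80 to 12.2 CPM at these ages, with no overlap, and both steps down passed the test (log2 differences of -0.57, SE 0.144, adjusted p = 0.016, and -2.51, SE 0.592, adjusted p = 0.00687). Without Cdkn1b-null replicate 2 at E18.5 the first had an adjusted p of 0.0508, and without the low PND8 library the second was -2.04. At 12wk wild type held 7.84, 0.353, 13.8 and 6.27 CPM, which overlapped the PND8 group.

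Among the keratins, the intermediate filament proteins of epithelia, Krt8 and Krt18 partner each other. Wild-type Krt8 was 111, 156, 69.4 and 176 CPM at E13.5, 106, 196, 260 and 236 at E18.5. Juvenile values were 53.3, 90.4, 86.2 and 78.6 CPM and adult ones 55.3, 56.5, 91.9 and 66.9. The postnatal groups lay below the E18.5 group and overlapped each other. Of the deposited Krt8 values 82.76% were not whole, as happens where RSEM divides reads among similar sequences, so its level is less certain than those of the other 9 genes. Krt18 in wild type was 87.1 to 263 CPM at E18.5, 22.3 to 43.0 at PND8 and 11.6 to 31.5 at 12wk. From E18.5 to PND8 Krt8 fell by 1.46 (SE 0.265, adjusted p = 0.000534) and Krt18 by 2.55 (SE 0.335, adjusted p = 5.33e-05). In Cdkn1b-null ovaries the same step was -1.66 (SE 0.121, adjusted p = 7.08e-07) for Krt8 and -3.18 (SE 0.206, adjusted p = 7.52e-07) for Krt18. Without the low libraries these 4 values were -1.66 and -2.80 in wild type and -1.63 and -3.04 in Cdkn1b-null. Without the low E18.5 wild-type library Krt8 also rose before birth, by 0.84 (adjusted p = 0.0491, against 0.63 and 0.153 with it).

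Krt19, the smallest acidic keratin, went up before birth and down after it. Wild-type values were 41.2, 68.3, 38.0 and 92.5 CPM at E13.5, 58.0, 196, 290 and 278 at E18.5. They were 37.0, 81.1, 62.8 and 82.8 CPM in the juvenile and 10.9, 0.0641, 22.8 and 10.6 in the adult ovary. Only the low library at E18.5 fell within the range of the neighbouring ages. The rise to E18.5 was 1.76 (SE 0.483, adjusted p = 0.0208) and the fall to PND8 was 1.73 on the log2 scale (SE 0.452, adjusted p = 0.00584), or 2.08 and 2.03 without the low E18.5 library. The rise was no longer called in 4 of 15 alternatives, with an adjusted p of 0.060 without wild-type replicate 1 at E13.5 and 0.0525 without wild-type replicate 3 at E18.5. The step to 12wk, -2.5 (SE 0.860, adjusted p = 0.056), missed the threshold with groups that did not overlap, and passed it without wild-type replicate 2 (-2.08, adjusted p = 0.0046). Krt7, which simple and ductal epithelia make, ran from 46.9 to 83.2 CPM at E13.5, 19.1 to 56.9 at E18.5 and 9.34 to 21.5 at PND8 in wild type, and it fell by 1.42 (SE 0.346, adjusted p = 0.00347) at the last of these steps. In Cdkn1b-null ovaries Krt7 fell at both steps, by 1.38 (SE 0.220, adjusted p = 0.00252) and 2.5 (SE 0.525, adjusted p = 0.00334). Without the low libraries the Krt7 falls to PND8 were 1.66 in wild type and 2.05 in Cdkn1b-null ovaries.

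Msln and Lrrn4, both surface proteins of mesothelium, moved in opposite directions before birth. Msln, the precursor of mesothelin, had 12, 3, 0 and 23 counts in the wild-type libraries at E13.5, or 0.547, 0.168, 0 and 1.01 CPM. It held 0.361, 5.53, 5.02 and 7.86 CPM at E18.5, then 5.37, 6.44, 6.90 and 8.71 at PND8, and the adult libraries had 9.16, 0.0641, 11.3 and 7.15. It rose by 3.33 (SE 0.954, adjusted p = 0.0216) from E13.5 to E18.5 in wild type and by 3.04 (SE 0.476, adjusted p = 0.00197) in Cdkn1b-null ovaries, and no later step passed the test in either genotype. The wild-type rise was 3.73 (adjusted p = 0.00754) without the low E18.5 library. It was no longer called in 6 of 15 alternatives, with adjusted p from 0.0508 to 0.0611 without wild-type replicate 1 or 2 at E13.5 or replicate 4 at E18.5. Lrrn4, a leucine-rich repeat neuronal-type protein, was 47.7, 57.7, 41.6 and 50.8 CPM at E13.5, and 1.03, 12.1, 7.67 and 17.0 at E18.5. These groups did not overlap, and the fall was 2.40 on the log2 scale (SE 0.607, adjusted p = 0.0148), or 2.02 without the low E18.5 library (adjusted p = 0.000825). Cdkn1b-null ovaries gave -2.06 (SE 0.315, adjusted p = 0.00247) for the same step. Lrrn4 fell again to PND8 in Cdkn1b-null ovaries (-2.29, SE 0.454, adjusted p = 0.00138, and -1.95 without the low PND8 library). In wild type the value was -1.26 (SE 0.634, adjusted p = 0.094), and -1.63 (adjusted p = 0.00314) without the low E18.5 library.

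Of the adhesion genes, Cdh1, which encodes E-cadherin, fell before birth and Epcam after it. Wild-type Cdh1 was 26.3, 17.4, 19.6 and 20.1 CPM at E13.5 and 2.22, 7.48, 2.41 and 6.94 at E18.5, with no overlap. It fell by 2.14 (SE 0.399, adjusted p = 0.00245; 1.90 without the low library) in wild type and by 2.45 (SE 0.302, adjusted p = 0.000692) in Cdkn1b-null ovaries, and later steps did not pass the test. Ddx4, a germ cell helicase, stood at 96.7 to 125 CPM at E13.5 and 32.9 to 54.1 at E18.5 in wild type, and Pax8 went from 29.4 to 59.0 down to 6.02 to 11.1 CPM over the same step. The part of germ cells and ducts in the Cdh1 values was not tested. Epcam was 59.1, 47.8, 39.9 and 71.4 CPM at E13.5, 24.3, 53.8, 53.2 and 56.3 at E18.5, then 9.68, 14.7, 10.3 and 18.4 at PND8 in wild type. The fetal groups overlapped and the PND8 libraries lay below them all. Its fall to PND8 was 1.91 on the log2 scale (SE 0.295, adjusted p = 0.000175), and 2.75 in Cdkn1b-null ovaries (SE 0.269, adjusted p = 1.52e-05). Without the low libraries these falls were 2.12 and 2.52.

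Counted over the 10 genes, all of which passed the filter on low counts in each comparison, the wild-type step from E13.5 to E18.5 called 4 of 10 at an adjusted p under 0.05, 2 higher and 2 lower. Over all 16603 genes tested 34% were called, 16.6% higher and 17.5% lower. From E18.5 to PND8, 7 of 10 were called, all lower, where 74.6% of all genes were called and 36.9% were called lower. Between PND8 and 12wk edgeR called 0 of 10, against 30.5% of all genes. At an unadjusted p under 0.05 there were 3 (Upk3b, Krt18 and Krt19; 41.6% of all genes), the groups did not overlap for 2 (Upk3b and Krt19; 33.3% of all genes), DESeq2 called 1 and limma-voom 3, and the count was 2 without wild-type replicate 2 or without wild-type replicate 3 at 12wk. The Cdkn1b-null libraries gave 7 of 10 from E13.5 to E18.5 (2 higher and 5 lower, with 30.2% of all genes called, 15.8% higher and 14.5% lower). They gave 8 of 10, all lower, from E18.5 to PND8 (77.4% of all genes, 38.5% lower). From PND8 to 12wk the count was 0 of 10 (29.1% of all genes) by edgeR, DESeq2 and limma-voom, and 0 at an unadjusted p under 0.05 (41.3% of all genes). Without Cdkn1b-null replicate 1 at 12wk Epcam was called at that step (1.15, adjusted p = 0.0493). The share called from E18.5 to PND8 was near the background of that step in both genotypes. Without the low wild-type library at E18.5, the wild-type counts were 5 and 8 at the steps before and after it. Without the low Cdkn1b-null library at PND8, the count from E18.5 was 8. In 1 fit of all groups, Upk3b, Krt7 and Krt19 were no longer called at the wild-type step to PND8, nor Upk3b, Upk1b, Krt7, Krt19, Msln and Lrrn4 at the Cdkn1b-null step to E18.5. Consecutive steps share the libraries of the age between them.

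**Figure D3:**
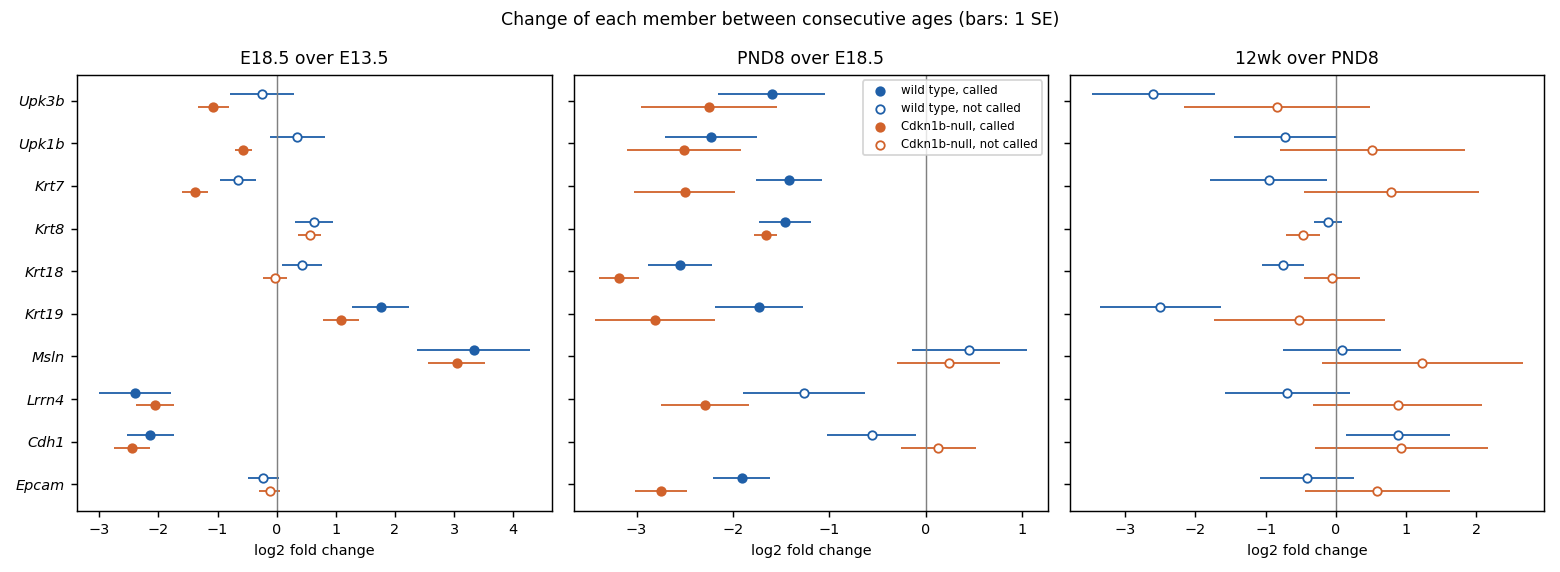
Log2 fold change of each gene between consecutive ages (later over earlier), wild type in blue and Cdkn1b-null in orange; bars are 1 SE and filled points passed an adjusted p of 0.05. In the middle panel 7 wild-type and 8 Cdkn1b-null points are filled, all below 0, and in the right panel none is.

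No genotype difference in these 10 genes passed the test at any age. At E13.5 edgeR called 0 of 10, with 0.00606% of all genes called. The log2 differences, Cdkn1b-null over wild type, ran from -0.10 for Cdh1 to 0.57 for Upk3b (SE 0.282), 9 of 10 above 0 with a median of 0.38 against a median of -0.00811 over all genes. Other lists were shifted at this age too. Germ cell and oocyte genes had 10 of 11 above 0 (median 0.61), granulosa genes 7 of 9 (0.27) and mesothelial partners 15 of 24 (0.1). Stroma and theca genes had 9 of 14 below 0 (median -0.31) and endothelial genes 9 of 10 (-0.19). Without Cdkn1b-null replicate 3 at E13.5, the highest of its group for 7 of the 10 members, Upk3b stood at 0.24, Krt19 at 0.11 (from 0.53), Krt7 at 0.06 (from 0.34) and Krt8 at 0.17 (from 0.44). At E18.5 edgeR called 0 of 10 members (4.99% of all genes), with values from -0.51 for Upk1b (SE 0.459) to 0.48 for Lrrn4 (SE 0.685). Leaving out wild-type replicate 1 at E18.5 made Upk1b a call, at -0.83 (adjusted p = 0.0189), the only member gained at this age by leaving out a library, and took Lrrn4 to 0.10. At PND8 edgeR called 0 of 10 (0.349% of all genes), and 8 of 10 values were below 0, among them Msln, which stood at 0.05 without the low Cdkn1b-null library. Krt7 had the largest, 5.86 ± 4.07 CPM (SD, n = 3) in Cdkn1b-null against 16.2 ± 5.54 (n = 4) in wild type. Its log2 difference was -1.49 (SE 0.573, adjusted p = 0.293), and -1.05 without the low Cdkn1b-null replicate 1. Krt19 was at -1.28 (SE 0.613; -0.85 without that library) and Krt18 at -0.71 (SE 0.271, adjusted p = 0.282; -0.58 without it).

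At 12wk, 0 of 10 were called (0.0115% of all genes). Upk3b was 25.6 ± 22.2 CPM in Cdkn1b-null (SD, n = 3) and 14.6 ± 10.2 in wild type (n = 4), a log2 difference of 0.81 with an SE of 1.48. Without wild-type replicate 2 and Cdkn1b-null replicate 1, a choice made after seeing the data, the difference was 0.97 (adjusted p = 0.34), and 0 of 10 were called. Its direction turned with limma-voom and sample weights (-1.89) and with a replicate block (-0.51), as did that of Upk1b, Krt7, Krt19, Msln, Lrrn4, Cdh1 and Epcam. SEs at this age ran from 0.254 for Krt8 and 0.407 for Krt18 to 1.48 for Upk3b, so a genotype difference in the other 8 genes was hardly detectable. At an unadjusted p under 0.05 there were 0, 0, 2 and 0 of the 10 at the 4 ages in order (3.49%, 22.1%, 15% and 9.63% of all genes), the 2 being Krt7 and Krt18 at PND8. DESeq2 and limma-voom called 0 at each age. Wild-type and Cdkn1b-null groups overlapped for all 10 genes at all 4 ages, where 3.84%, 14.5%, 14.7% and 9.69% of all genes did not overlap.

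**Figure D4:**
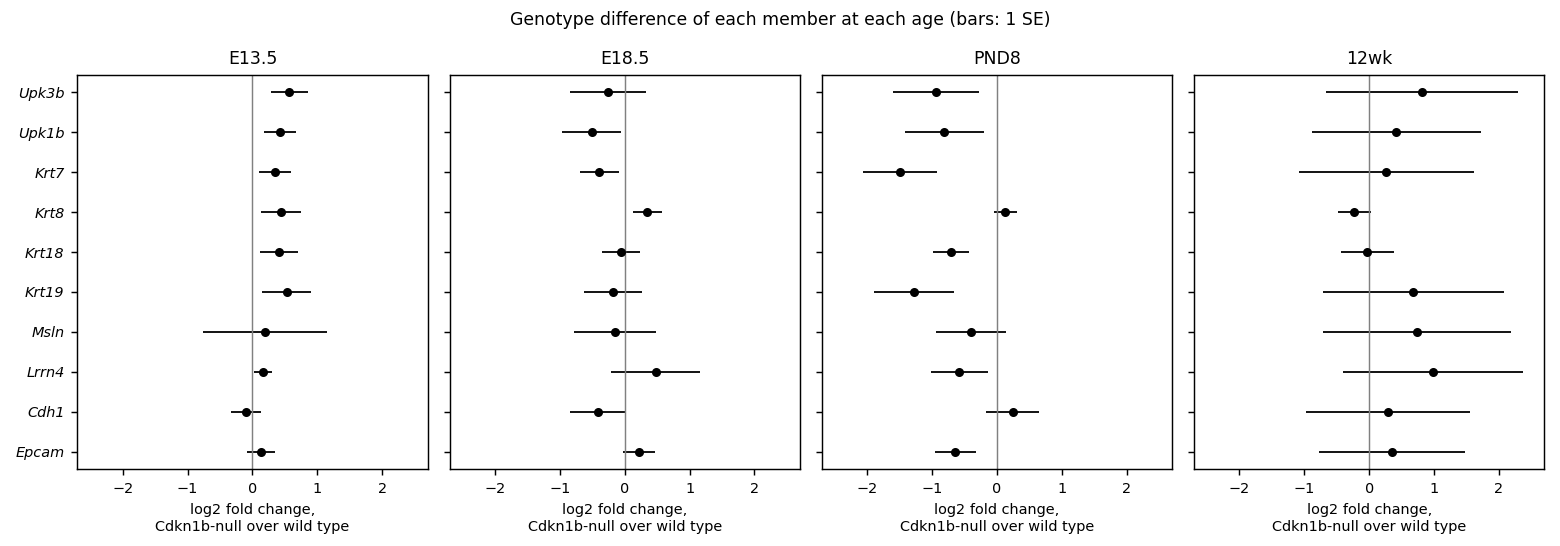
Log2 fold change of each gene, Cdkn1b-null over wild type, at each age; bars are 1 SE. No value passed an adjusted p of 0.05, and the bars are widest at 12wk for the 8 genes other than Krt8 and Krt18.

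Whether the genotype difference changed with age was tested as an interaction over all 29 libraries. It called 0 of 10 (0.806% of all genes), with the smallest adjusted p at 0.619 for Krt18, 0 at an unadjusted p under 0.05, and 0 by DESeq2 and limma-voom.

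Within groups Krt8 and Krt18 varied most alike. The root-mean-square difference of 2 genes' deviations from their group means of log2 CPM was 0.23 for this pair, the smallest of the 45 pairs, then 0.29 for Krt7 and Krt19 and 0.32 for Upk1b and Krt7. It was largest, at 1.75, for Upk3b and Krt8. Much of that spread lay in the 2 low libraries at 12wk: without them (a choice made after seeing the data) Krt8 and Krt18 gave 0.14, still the smallest, Upk3b and Krt8 gave 0.58, and the largest was 0.75 for Msln and Cdh1. The ratio of Krt8 to Upk3b counts was 0.299 to 0.587 at E13.5 and 0.522 to 1.95 at E18.5. It was 0.597 to 1.0 in wild type at PND8, inside the E18.5 range. In the adult libraries other than the low pair it was 1.01 to 3.99. In Cdkn1b-null replicate 1 at PND8 it was 7.84, against 1.18 and 1.38 in the other 2. These points share libraries and are a description.

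Outside the list, the gene with the profile most like that of Upk3b over the 29 libraries was Bnc1, with a root-mean-square difference of centred log2 CPM of 1.06. Ppp2r2b (1.31), Lypd6b (1.37) and Tm4sf5 (1.51) came next among 13879 genes with a mean of at least 1 CPM. Bnc1 averaged 40.4 and 14.7 CPM in the fetal groups of wild type, 9.09 in the juvenile and 3.32 in the adult group. The closest to Krt8 were Pfkl (0.30), a phosphofructokinase subunit, Dcbld1 (0.34), Anxa2 (0.36), a membrane-binding annexin, and Ttc30b (0.36). These 4 and the 4 closest to Upk3b had no gene in common. The order for Upk3b rested on the low pair of adult libraries: over the other 27 libraries Tm4sf5 came first (0.44), then Cfap161 (0.61), Ppp2r2b (0.63) and Nfe2l3 (0.64), and Bnc1 was not among them. For Krt8, Pfkl (0.29), Dcbld1 (0.35) and Anxa2 (0.36) were again the first 3.

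Called partner genes of mesothelium went in both directions with age. In wild type 9 of 22 tested were called from E13.5 to E18.5 (4 higher, 5 lower), 10 of 21 from E18.5 to PND8 (3 higher, 7 lower) and 8 of 21 to 12wk (4 higher, 4 lower), where 34%, 74.6% and 30.5% of all genes were called. Aldh1a1, a retinal dehydrogenase, rose by 3.42 (SE 0.258, adjusted p = 2.03e-05) before birth, from 26.5 ± 8.26 to 285 ± 65.0 CPM (SD, n = 4 each), and again by 1.28 (SE 0.0999, adjusted p = 7.92e-05) to 12wk. Lgr5, an R-spondin receptor that marks part of the ovarian surface, rose by 1.90 (SE 0.304, adjusted p = 0.00111) to E18.5. It then fell by 3.74 (SE 0.304, adjusted p = 1.80e-06) to PND8, from 180 ± 53.8 to 13.4 ± 4.73 CPM. Nkain4 and Sulf1 fell with it at that step (-2.96 and -1.85). Fmod, a matrix proteoglycan, fell by 1.19 before birth and by 1.56 after PND8, and Efemp1, another matrix protein, rose by 1.69 to 12wk. Summed over the 24 partners, wild-type libraries ran from 1331 to 2070 CPM at E13.5 and from 1313 to 1711 at 12wk. Aldh1a1 held 24.7 CPM of this sum at E13.5 and 793 CPM at 12wk on average. Without it, a choice made after seeing the data, the sums were 1316 to 2040 and 542 to 948 CPM. The 10 members went from 608 to 1112 down to 70.0 to 247 CPM.

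Other keratins and uroplakins were scarce. Of 16 listed, 7 passed the filter at the first wild-type step and 4 at each later one. Krt14, a basal-layer keratin, fell by 3.40 (SE 0.517, adjusted p = 0.0008) from 6.72 ± 2.42 to 0.622 ± 0.428 CPM before birth, and Krt222 by 2.67. Krt10 rose by 0.75 before birth and fell by 2.62 after it and by 1.00 to 12wk. Krt20 fell by 3.39 (SE 0.220, adjusted p = 4.45e-07) to PND8, from 21.2 ± 4.34 to 2.02 ± 0.409 CPM, and rose by 1.10 to 12wk. Krt1 fell by 2.20 to PND8, and Krt80 rose by 2.12 to 12wk.

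Epithelial junction genes and their regulators were called in both directions. Of the 52 listed, 22 of 49 tested were called before birth in wild type (6 higher, 16 lower), 31 of 45 to PND8 (16 higher, 15 lower) and 14 of 46 to 12wk (10 higher, 4 lower), against the same 34%, 74.6% and 30.5% of all genes. Genes of simple and ductal epithelium were among those that fell to E18.5: the protease St14 by 4.05 on the log2 scale and Prom1 by 3.02, from 37.9 ± 12.8 to 4.67 ± 0.480 CPM. The transcription factor Ovol2 went from 2.08 ± 0.232 CPM (SD, n = 4) to a mean under the floor (0.0137 CPM, adjusted p = 9.37e-05). Dsp, the desmosomal plaque protein, rose by 3.78 (SE 0.276, adjusted p = 9.14e-07) to PND8, the step at which Krt8 and Krt18 fell. It rose again by 2.01 (SE 0.165, adjusted p = 9.45e-05) to 12wk, when it averaged 365 ± 51.1 CPM. Krt8 and Krt18 were not called at that later step (-0.11, adjusted p = 0.708, and -0.75, adjusted p = 0.0898). The junction proteins Tjp1 and Ctnnd1 rose to PND8 by 2.01 and 1.5 on the log2 scale. Cdh3, which encodes P-cadherin, fell by 1.54 to 12wk. Pkp3, a plakophilin, rose from a mean under the floor (0.0403 CPM) to 1.06 ± 0.424 CPM at 12wk (adjusted p = 0.000988).

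Between genotypes, the counts called at E18.5 were 1 of 22 mesothelial partners, 0 of 6 keratins and uroplakins and 2 of 46 junction genes, no larger a share than the 4.99% of all genes called, and 0 in each list at E13.5, PND8 and 12wk. At PND8 18 of 21 partners were lower in Cdkn1b-null (median -0.43), 7 at an unadjusted p under 0.05 (edgeR, 15% of all genes). Partner sums at 12wk were 2191 to 3142 CPM in Cdkn1b-null and 1313 to 1711 in wild type. Without Aldh1a1, a choice made after seeing the data, they were 725 to 1013 and 542 to 948 CPM. The cause was not tested. At E18.5 the desmosomal cadherin Dsc2 was higher in Cdkn1b-null ovaries by 0.97 (SE 0.121, adjusted p = 0.00188), at 44.1 ± 0.929 CPM against 22.5 ± 3.07 (SD, n = 4 each). Its difference also changed with age, with an adjusted p of 0.0154 for the interaction. Nr2f2, a nuclear receptor of stromal and mesothelial cells, was lower by 0.52 on the log2 scale (SE 0.129, adjusted p = 0.0436), at 99.2 ± 10.2 CPM against 142 ± 22.5.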

How the data were processed

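The deposited table held RSEM expected counts per Ensembl gene, per the file headers, for 29 libraries. The submitters' processing notes name Trim Galore, STAR 2.5.2, RSEM 1.3.0 and FastQC 0.11.5. The genome build and annotation are not given in the sources used here. The authors' expected counts divide reads among similar genes (31.4% of the values above 0 were not whole), and here they were rounded to whole numbers. Depth was 14.1 to 48.2 M counts per library.

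Each comparison used the libraries of its own groups in edgeR 4.0.16 (R 4.3.3): sizes scaled by TMM, genes kept by filterByExpr (at least 10 counts, 15 in total), a robust quasi-likelihood F test and Benjamini-Hochberg adjustment over all genes tested, called under 0.05. SE is the log2 fold change divided by the square root of F. Log2 CPM used a prior count of 2. The interaction was fitted over all 29 libraries. The fits were tested on counts simulated for the genotype comparisons at E18.5 and 12wk. The changed genes were drawn from those with a mean above 2 CPM, so recovery of weaker genes was not simulated. Of genes changed by 1 on the log2 scale, 63% and 53% were called, and of those changed by 2, 92% and 87%. False calls were 11 and 9. Counts were drawn gene by gene, so no simulated library stood low for a set of genes as the 12wk pair did. Alternatives were other size factors, no filter, DESeq2 1.42.0, limma-voom (limma 3.58.1), 1 fit of all groups, no haemoglobin genes, a replicate block, and leaving out libraries. Members and gene lists were chosen with earlier results of these data known. Named genes are the members, Cdkn1b, up to 3 called genes of smallest p per list in the 3 epithelial lists, defining genes of other cell types, and the 4 genes most like Upk3b and Krt8. One called gene that this rule names is not reported here.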

Additional observations from a re-analysis of the deposited data

Results flagged for a closer look

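In groups of 4 libraries, a value was set apart when its gap to the nearest other library was above Dixon's 95% limit on log2 CPM. Of 50 sets of 4 tested, 7 were set apart. For a single set chance gives about 1 in 20, but the sets share libraries across genes, so the count cannot be set against that rate. Wild-type replicate 2 at 12wk was the lowest of its group for Upk3b (0.0321 CPM), Krt19 (0.0641 CPM), Msln (0.0641 CPM) and Lrrn4 (0.0 CPM). Wild-type replicate 1 at E18.5 was the lowest for Msln (0.361 CPM) and Epcam (24.3 CPM). Wild-type replicate 1 at PND8 was the lowest for Krt18 (22.3 CPM). The 12wk Cdkn1b-null group has 3 libraries and was not tested this way.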

How the results depend on the processing

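Over the 10 genes, leaving out 1 library gave 946 values on the same side of the threshold with the same sign, 41 with the opposite sign, 20 no longer called and 11 newly called. Interaction values are included, and as they have no sign they were judged by the threshold alone. The other alternatives gave 714, 36, 20 and 10. The genotype count at E18.5 (0 of 10) was 0 to 1 over left-out libraries. From E13.5 to E18.5 in wild type the count (4) was 1 without the filter and 2 to 5 over left-out libraries, 2 without wild-type replicate 1 at E13.5. For E18.5 to PND8 (7) it was 4 in 1 fit of all groups. For PND8 to 12wk (0) it was 1 with DESeq2, 3 with limma-voom, 2 in 1 fit and 0 to 2 over left-out libraries. In Cdkn1b-null, E13.5 to E18.5 (7) gave 1 in 1 fit and 4 to 8 over left-out libraries, 4 without Cdkn1b-null replicate 2 at E18.5. PND8 to 12wk (0) gave 1 with the replicate block and 0 to 1 over left-out libraries. The cause was not tested.

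Whether same-numbered libraries pair could not be settled from so few libraries, and the numbers came from titles alone. The correlations of their deviations ran from -0.118 to 0.145, and those of differently numbered libraries from -0.226 to 0.206. All same-numbered values were above 0 at E18.5 (0.048 to 0.145) and at 12wk (0.028 to 0.139), but not at E13.5 or PND8. With the replicate block, signs turned for values that had not been called. At E18.5 these were Upk3b 0.05, Krt18 0.04, Krt19 0.02 and Msln 0.17. At 12wk they were Upk3b -0.51, Upk1b -0.75, Krt7 -0.89, Krt19 -0.53, Msln -0.47, Lrrn4 -0.23, Cdh1 -0.76 and Epcam -0.72. Between ages they were Msln -0.43 (wild type, PND8 to 12wk) and -0.14 (Cdkn1b-null, E18.5 to PND8), Upk1b -0.24 and Epcam -0.13 (Cdkn1b-null, PND8 to 12wk).

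With limma-voom and sample weights, the values turned to Msln 0.42 and Cdh1 0.02 at E18.5, and at 12wk to Upk3b -1.89, Upk1b -2.14, Krt7 -1.58, Krt19 -1.10, Msln -2.58, Lrrn4 -1.03, Cdh1 -1.98 and Epcam -1.22. Between ages they turned to Cdh1 0.01 (wild type, E18.5 to PND8), Msln -0.37 (wild type, PND8 to 12wk) and Krt18 0.05 (Cdkn1b-null, E13.5 to E18.5). For Cdkn1b-null from PND8 to 12wk they turned to Upk1b -2.10, Krt7 -1.32, Msln -2.26, Lrrn4 -1.54, Cdh1 -1.77 and Epcam -1.16. Without both low libraries at 12wk Krt18 was 0.07.

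Leaving out 1 library at a time, values that crossed 0 ran as follows. Genotype at E13.5: Cdh1 -0.32 to 0.08, Msln -0.33 to 0.58, Epcam -0.08 to 0.28. E18.5: Upk3b -0.60 to 0.11, Krt18 -0.31 to 0.11, Krt19 -0.49 to 0.04, Msln -0.54 to 0.22. PND8: Krt8 -0.01 to 0.22, Msln -1.09 to 0.05, Cdh1 -0.28 to 0.49. 12wk: Upk1b -0.16 to 1.01, Krt7 -0.54 to 0.86, Krt18 -0.46 to 0.28, Cdh1 -0.25 to 1.00, Epcam -0.13 to 0.93. Wild-type steps: Upk3b -0.62 to 0.09 (to E18.5), Msln -0.24 to 0.50 (to 12wk). Cdkn1b-null steps: Krt18 -0.27 to 0.13 and Epcam -0.23 to 0.07 (to E18.5), Msln -0.44 to 0.70 and Cdh1 -0.38 to 0.38 (to PND8), Krt18 -0.50 to 0.24, Krt19 -0.98 to 0.18, Upk1b -0.07 to 1.18 and Krt7 -0.01 to 1.40 (to 12wk).

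Over all genes the genotype counts moved more. At E13.5 (1 called) DESeq2 gave 65, limma-voom 0 and 1 fit 59. At E18.5 (814) DESeq2 gave 1685, limma-voom 1670, and left-out libraries 246 to 1372. At PND8 (62) the counts were 258 without the filter, 824 with DESeq2, 104 with limma-voom, 0 in 1 fit, 8 with the block and 0 to 147 over left-out libraries. At 12wk (2) they were 12, 326, 7, 68 and 10, and 0 to 3. The interaction (164) gave 706 with DESeq2 and 72 to 235 over left-out libraries. The Cdkn1b-null step to 12wk (5071) gave 2642 to 5129.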
